A study of Homo sapiens with 6 samples.

Results

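The amino acid transporters described here are 10 genes of the solute carrier families: SLC7A11, SLC7A5, SLC3A2, SLC1A4, SLC1A5, SLC38A1, SLC38A2, SLC7A1, SLC6A9 and SLC43A1. They were taken by name, and each of their array probes with a detection p under 0.01 on 2 or more of the 6 arrays was kept. The array annotation pairs 14 probes with these genes, and 12 of them, covering all 10 genes, met the rule, among 18106 kept probes of 47323 on the array. The cells were MDA-MB-231, an established human breast cancer line of basal, triple-negative type, grown in a DMEM-based medium with serum, added L-glutamine and sodium pyruvate. The 3 groups, of 2 arrays each, were a mock-transfected control, a line that stably over-expresses the tRNA locus chr16.trna1 (Arg-CCG), here the tRNA-Arg line, and a line that stably over-expresses chr1.trna5 (Glu-TTC), here the tRNA-Glu line. The vector, its promoter, and whether a line is 1 clone are not given in the labels used here, and none of the probes is named for a tRNA of this kind. The labels do not state whether a group's 2 arrays hold RNA of separate cultures, and every p-value here rests on array-to-array spread that may be technical alone.

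Amino acids cross the plasma membrane through transporters that either carry them in with sodium or exchange one amino acid for another. Exchangers such as SLC7A5 bring in leucine and other large neutral amino acids in return for glutamine, which sodium-coupled carriers such as SLC1A5, SLC38A1 and SLC38A2 accumulate. Many transporter genes are targets of ATF4, a transcription factor that is translated when amino acids are short or the endoplasmic reticulum is stressed. ATF4 binds, with C/EBP proteins, a composite element in their promoters or introns, while MYC binds the E-box.

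Because the comparisons concern mRNA levels of genes known to answer to ATF4, promoter windows of the members were searched for the letters of the C/EBP-ATF element, TGATGNAA, and of the E-box, CACGTG, on both strands. The windows are RefSeq's on GRCh38.p14, 250 bases before to 50 after an annotated start, and the table holds 16 of them for 9 of the 10 genes, several genes having more than 1 start. The C/EBP-ATF letters stood in 5 of these windows, each of another gene, and in 3.62% of all 35116 windows. For SLC3A2 and SLC1A5 this was 1 of 3 windows, and for SLC38A1 1 of 2. The E-box stood in 3 windows of the members, of SLC7A5 (1 of 1), SLC1A5 (1 of 3) and SLC43A1 (1 of 2), and in 7.26% of all windows. These 3 genes did not move alike, since SLC7A5 was called higher in both lines, SLC43A1 lower in the tRNA-Glu line and SLC1A5 in neither. SLC38A2 and SLC6A9, called lower in both lines, have 1 window each, which holds neither motif. The window of SLC7A5, the member of bright signal that rose in both lines, holds an E-box at position -130 from its start and no C/EBP-ATF match. Of the 2 windows of SLC1A4, which fell in both lines, only 1 holds a C/EBP-ATF match, on the reverse strand at position -7. A match is a description of the letters only, and no window of the members holds both motifs. The first pair of lines below gives the SLC7A5 window and the SLC1A4 window with the match whole, in lower case with the matches in capitals. They lie at chr16:87869458-87869757 (minus strand) and chr2:64989149-64989448 (plus strand).
SLC7A5: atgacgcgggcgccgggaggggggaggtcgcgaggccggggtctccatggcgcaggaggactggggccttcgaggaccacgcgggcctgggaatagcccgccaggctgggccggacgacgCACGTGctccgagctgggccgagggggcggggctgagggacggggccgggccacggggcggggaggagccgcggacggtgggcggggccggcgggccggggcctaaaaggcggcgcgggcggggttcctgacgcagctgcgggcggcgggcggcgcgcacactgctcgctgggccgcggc
SLC1A4: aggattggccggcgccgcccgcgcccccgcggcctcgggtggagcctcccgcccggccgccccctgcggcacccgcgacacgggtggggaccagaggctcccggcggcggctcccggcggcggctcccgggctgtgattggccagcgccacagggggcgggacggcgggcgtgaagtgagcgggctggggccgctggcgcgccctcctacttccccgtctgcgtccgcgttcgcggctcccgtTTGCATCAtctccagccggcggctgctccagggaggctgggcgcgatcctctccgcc
The other 4 windows with a C/EBP-ATF match are shown as stretches around it, since their genes did not all move alike. They lie at chr11:62881710-62881748 (plus strand) for SLC3A2, chr19:46784878-46784937 (minus strand) for SLC1A5, chr12:46266487-46266546 (minus strand) for SLC38A1 and chr13:29595648-29595707 (minus strand) for SLC7A1, with the match in capitals.
SLC3A2: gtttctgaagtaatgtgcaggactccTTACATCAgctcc
SLC1A5: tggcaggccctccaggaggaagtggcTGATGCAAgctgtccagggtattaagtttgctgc
SLC38A1: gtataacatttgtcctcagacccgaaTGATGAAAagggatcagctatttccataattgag
SLC7A1: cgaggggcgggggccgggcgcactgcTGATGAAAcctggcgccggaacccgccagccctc

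The arrays resembled each other in signal, with mean non-normalized intensities of 250.6 to 331.3 and 16650 to 17704 probes detected at a p under 0.01. The 2 arrays of a group correlated across kept probes with r of 0.996 in each group, and probes are not independent replicates. Of the 12 basal and mesenchymal markers of the line, 12 were detected on both arrays in control, 11 in the tRNA-Arg line and 10 in the tRNA-Glu line. VIM and CD44 were detected on all 6 arrays, while ZEB1 was not above background on either tRNA-Glu array and FN1 on none of the 4 arrays of the lines. The summed level of this list was 41422 to 43591 in control, 47974 to 48528 in the tRNA-Arg line and 46688 to 48725 in the tRNA-Glu line. The luminal markers ESR1, PGR and CDH1 were detected on none of the 6 arrays, while KRT8, KRT19, EPCAM, MUC1 and ERBB2 were detected on all 6. KRT8, KRT19 and EPCAM were called higher in both lines, MUC1 in the tRNA-Glu line only and ERBB2 in neither. Of the luminal list, 5 of 12 genes were detected on both arrays in every group. The summed level of all 12 genes moved with the groups. It was 1264 to 1280 in control, 1879 to 1893 in the tRNA-Arg line and 2565 to 2590 in the tRNA-Glu line. Of 11 blood cell markers with a probe, 3 in control and 4 in each line were detected on both arrays, and the list's summed level was 1910 to 1980 in control, 2814 to 2899 in the tRNA-Arg line and 3981 to 4190 in the tRNA-Glu line. Of this list CD68, LAPTM5 and CD14 were detected on 6 arrays and CSF1R on 5. CD68, LAPTM5 and CSF1R were called higher in both lines, by 2.25- to 2.78-fold in the tRNA-Glu line. CD14 was called lower in the tRNA-Arg line (log2 difference -0.76, adjusted p = 0.00138) and was not called in the tRNA-Glu line (0.12, adjusted p = 0.337). PTPRC, CD3E, HBB and HBA1 were detected on 0 arrays. The part of these lists in the results below was not tested.

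In the tRNA-Glu line most of the transporters were lower than in control, and SLC7A5 was higher. Of the 12 probes, 8 were called lower (66.7%), 1 was called higher (8.33%) and 3 were not called. Over all kept probes 27.0% were called lower and 26.7% higher in this comparison, or 53.7% in either direction. In the tRNA-Arg line 5 of the 12 probes were called lower (41.7%) and 2 higher (16.7%), against 20.4% and 19.2% of all kept probes, or 39.6% in either direction. Of the 12 probes, 11 had no overlap between the arrays of the tRNA-Glu line and control, against 77.2% of all kept probes, and 10 had none in the tRNA-Arg line, against 71.3%. The probes of SLC7A11 and SLC1A4 met the detection rule in 1 group only, the one in which they were highest, and so had to differ. Without them 7 of 10 probes were called lower and 1 higher in the tRNA-Glu line, and 4 lower and 1 higher in the tRNA-Arg line. The median log2 difference of these 10 probes was -0.47 in the tRNA-Glu line, where that of all kept probes was 0.01, and -0.24 in the tRNA-Arg line, where it was -0.01. Both comparisons use the same control arrays, so their values are given side by side and not as support for each other. In bulk RNA, fewer cells with a transcript and less of it per cell cannot be told apart.

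**Figure D1:**
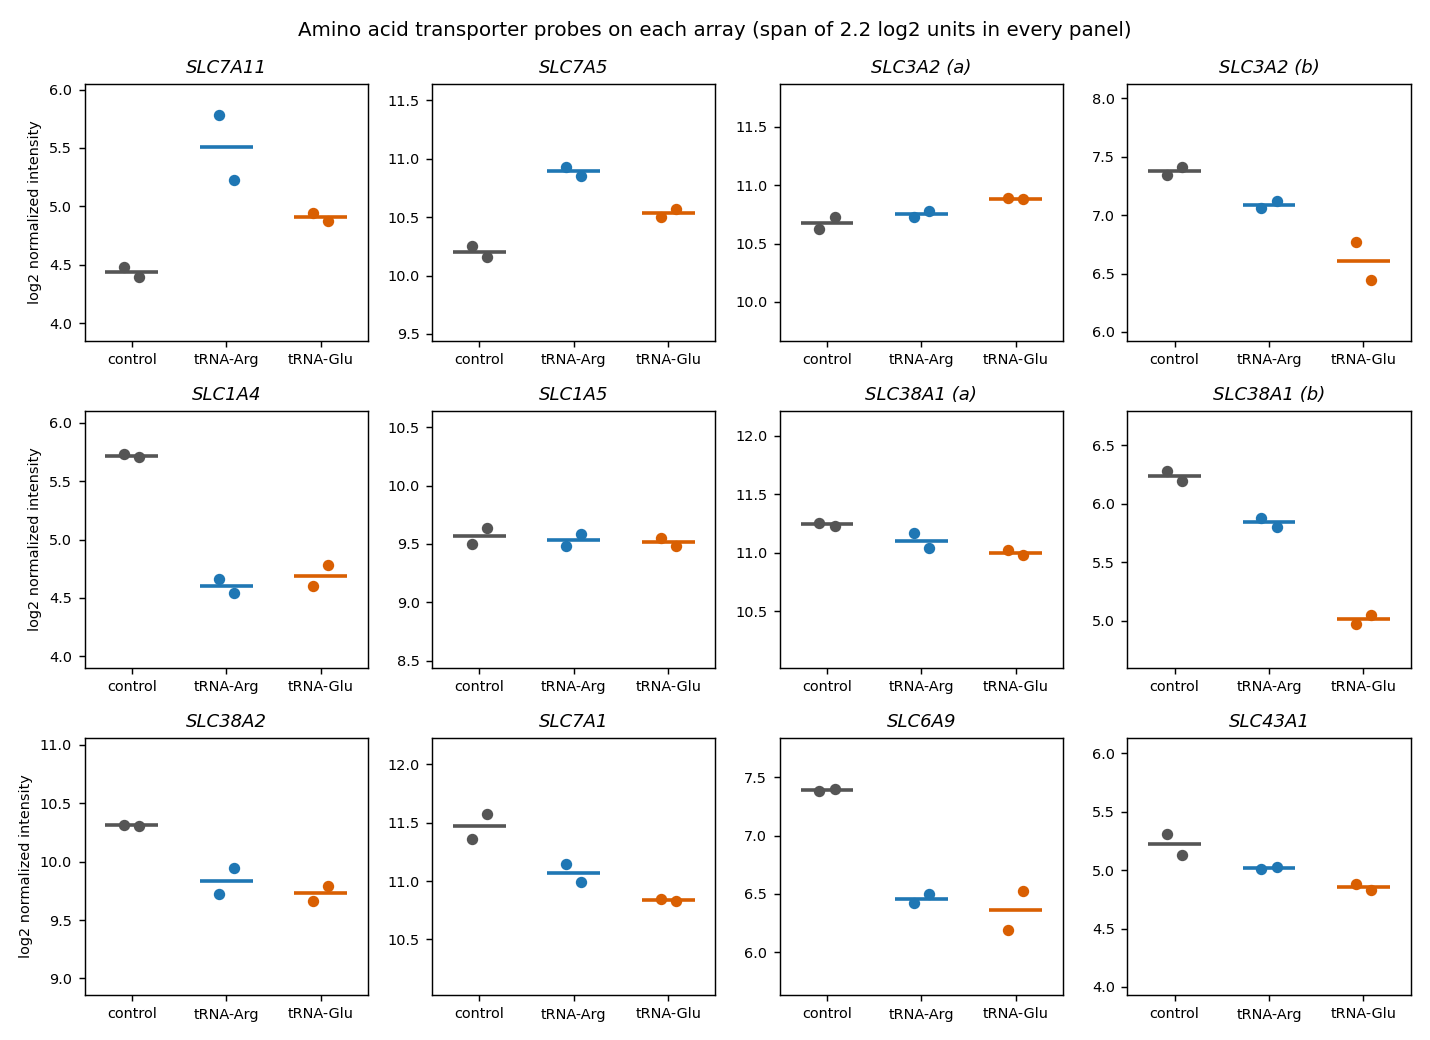
Normalized intensity on the log2 scale (vertical axis, the same span in every panel) of each kept probe on the 2 control, 2 tRNA-Arg and 2 tRNA-Glu arrays, with points for arrays and lines for group means. Where a gene has 2 probes, (a) is the one with the higher mean and (b) the other. The 2 control arrays lie above all 4 others for 8 probes, those of SLC1A4, SLC38A1, SLC38A2, SLC7A1, SLC6A9 and SLC43A1 and SLC3A2 (b), and below them for SLC7A11 and SLC7A5.

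SLC7A5 (probe ILMN_1720373), the light chain of the exchanger for leucine and other large neutral amino acids, was at log2 intensities of 10.25 and 10.16 in control, 10.50 and 10.57 in the tRNA-Glu line, and 10.93 and 10.85 in the tRNA-Arg line. The 3 groups did not overlap, with control lowest and the tRNA-Arg line highest. It rose 1.61-fold in the tRNA-Arg line (log2 difference 0.69 ± 0.09 SE, n = 2 arrays per group, adjusted p = 0.00126). It rose 1.26-fold in the tRNA-Glu line (0.33 ± 0.09 SE, adjusted p = 0.0158), a call lost without tRNA-Glu replicate 2 (0.29, adjusted p = 0.0815) or control replicate 2 (0.28, adjusted p = 0.0781). These directions follow the array labels, line minus control, and oppose the authors' deposited table, whose log fold changes for SLC7A5 are -0.31 for the tRNA-Glu line and -0.66 for the tRNA-Arg line. Over 9088 genes matched by symbol the correlation with the authors' deposited table was -0.898 and -0.899, across genes, which are not independent replicates. Of the 10 transporters, 9 and 10 had the opposite sign there.

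SLC7A11 (ILMN_1655229) encodes the light chain that exchanges intracellular glutamate for cystine, the source of cysteine for glutathione. Its log2 intensities were 4.48 and 4.39 in control, 4.94 and 4.88 in the tRNA-Glu line, and 5.79 and 5.22 in the tRNA-Arg line, so the groups did not overlap and the tRNA-Arg arrays lay apart from each other. Neither control array was above background (detection p of 0.184 and 0.322), both tRNA-Glu arrays had a detection p of 0.0130 and 0.0208, and the tRNA-Arg arrays had 0. By the group means, SLC7A11 was therefore at least 1.74-fold higher in the tRNA-Arg line than in control. This bound sets the line's mean against the mean, over the control arrays, of the lowest signal above background or the probe's own where that was higher. The fitted log2 difference was 1.07 ± 0.17 SE (adjusted p = 0.00318), and 0.54 without background correction. In the tRNA-Glu line the difference was 0.47 ± 0.17 SE and was not called (adjusted p = 0.0514, and 0.00688 to 0.175 under 15 alternatives, 8 of which called it).

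SLC3A2 encodes the CD98 heavy chain, which pairs with both SLC7A5 and SLC7A11 and carries them to the cell surface. Its 2 kept probes did not move together. Probe (a), ILMN_1726456, was at 10.62 and 10.72 in control, 10.89 and 10.88 in the tRNA-Glu line, and 10.72 and 10.78 in the tRNA-Arg line. Its arrays were highest in the tRNA-Glu line, and control and the tRNA-Arg line overlapped. The difference in the tRNA-Glu line was 0.21 ± 0.08 SE and was not called (adjusted p = 0.0683). It was called under 6 of 16 alternatives, the mean of both probes being among the 16. The difference in the tRNA-Arg line was 0.08 ± 0.08 SE (adjusted p = 0.498). Probe (b), ILMN_1679041, was at 7.34 and 7.41 in control, 6.77 and 6.45 in the tRNA-Glu line, and 7.06 and 7.12 in the tRNA-Arg line. It was lowest in the tRNA-Glu line with no overlap between groups. Probe (b) fell by 0.77 on the log2 scale in the tRNA-Glu line (SE 0.12, adjusted p = 0.00161), while its difference in the tRNA-Arg line was -0.29 ± 0.12 SE and was not called (adjusted p = 0.0936). With the mean of both probes the tRNA-Glu difference was -0.28, so the direction for the gene depends on the probe. In the authors' deposited table the log fold changes of SLC3A2 are 0.01 and -0.02.

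SLC1A4 (ILMN_1656904) carries alanine, serine, cysteine and threonine with sodium. Its log2 intensities were 5.73 and 5.71 in control, 4.60 and 4.78 in the tRNA-Glu line, and 4.66 and 4.54 in the tRNA-Arg line, with control apart from both lines and the lines overlapping. SLC1A4 fell 2.04-fold in the tRNA-Glu line (log2 difference -1.03 ± 0.10 SE, adjusted p = 0.000224) and 2.17-fold in the tRNA-Arg line (-1.12 ± 0.10 SE, adjusted p = 0.000293). In each line 1 of the 2 arrays was above background, so its level there is close to the lowest the array can measure. Without background correction the differences were -0.51 and -0.56, still called.

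SLC1A5 (ILMN_1707720), the related exchanger that takes up glutamine, was at 9.50 and 9.64 in control, 9.55 and 9.48 in the tRNA-Glu line, and 9.49 and 9.59 in the tRNA-Arg line. All 3 groups overlapped. The difference was -0.05 (95% interval -0.27 to 0.16) in the tRNA-Glu line and -0.03 (95% interval -0.25 to 0.19) in the tRNA-Arg line, neither called (adjusted p = 0.663 and 0.813). With median scaling the differences were 0.08 and 0.07.

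SLC38A1 and SLC38A2 take up glutamine and alanine with sodium, and SLC38A2 is known to be induced when amino acids are withdrawn. SLC38A2 (ILMN_1651799) was at 10.32 and 10.30 in control, 9.66 and 9.79 in the tRNA-Glu line, and 9.73 and 9.95 in the tRNA-Arg line. Control lay above both lines, which overlapped. It fell 1.50-fold in the tRNA-Glu line (-0.58 ± 0.10 SE, adjusted p = 0.00301) and 1.39-fold in the tRNA-Arg line (-0.47 ± 0.10 SE, adjusted p = 0.0109), the latter not called without tRNA-Arg replicate 1 (-0.36, adjusted p = 0.0615).

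SLC38A1 has 2 kept probes, and the size of its difference depends on the probe. Probe (b), ILMN_2266948, was at 6.28 and 6.20 in control, 4.97 and 5.05 in the tRNA-Glu line, and 5.88 and 5.80 in the tRNA-Arg line, in 3 separate groups. In the tRNA-Glu line it fell 2.34-fold (-1.23 ± 0.09 SE, adjusted p = 7.78e-05, and -0.68 without background correction). In the tRNA-Arg line it fell 1.32-fold (-0.40 ± 0.09 SE, adjusted p = 0.00999), a call lost without tRNA-Arg replicate 2 (-0.36, adjusted p = 0.0572) or control replicate 1 (-0.36, adjusted p = 0.0512). Probe (a), ILMN_1769911, was at 11.26 and 11.23 in control, 11.02 and 10.98 in the tRNA-Glu line, and 11.17 and 11.04 in the tRNA-Arg line. The lines lay below control, but less far. Probe (a) fell 1.18-fold in the tRNA-Glu line (-0.24 ± 0.09 SE, adjusted p = 0.0484) and was at -0.01 with median scaling. It was called under 6 of 16 alternatives, and the 16 include the mean of both probes (-0.74), which is not a value of probe (a) alone. In the tRNA-Arg line its difference was -0.14 ± 0.09 SE (adjusted p = 0.239) and 0.03 with median scaling.

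SLC7A1 (ILMN_1683859), the main carrier of arginine and lysine in many cell types, was at 11.36 and 11.58 in control, 10.85 and 10.83 in the tRNA-Glu line, and 11.15 and 10.99 in the tRNA-Arg line. The groups did not overlap, with the tRNA-Glu line lowest. SLC7A1 fell 1.55-fold in the tRNA-Glu line (-0.63 ± 0.11 SE, adjusted p = 0.00228, and -0.40 with median scaling) and 1.32-fold in the tRNA-Arg line (-0.40 ± 0.11 SE, adjusted p = 0.0217). The tRNA-Arg call was lost with median scaling (-0.22, adjusted p = 0.139), without tRNA-Arg replicate 2 (-0.32, adjusted p = 0.114) and without control replicate 2 (-0.29, adjusted p = 0.107).

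SLC6A9 (ILMN_1714445), a sodium- and chloride-coupled glycine carrier, was at 7.38 and 7.39 in control, 6.19 and 6.53 in the tRNA-Glu line, and 6.42 and 6.50 in the tRNA-Arg line. Control stood apart and the lines overlapped. It fell 2.04-fold in the tRNA-Glu line (-1.03 ± 0.12 SE, adjusted p = 0.00049) and 1.90-fold in the tRNA-Arg line (-0.93 ± 0.12 SE, adjusted p = 0.00138), and both calls held under all 16 alternatives. The other 2 probes of SLC6A9 did not meet the detection rule on any array, with non-normalized intensities of 32.2 to 42.6 for one and 43.7 to 50.4 for the other. The kept probe of SLC6A9 read 101.5 to 206.1.

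SLC43A1 (ILMN_1780924), a sodium-independent carrier of branched-chain and other large neutral amino acids, gave a signal near background, with non-normalized intensities of 49.6 to 60.3. Its log2 intensities were 5.31 and 5.13 in control, 4.88 and 4.83 in the tRNA-Glu line, and 5.01 and 5.03 in the tRNA-Arg line. The groups did not overlap. It fell 1.29-fold in the tRNA-Glu line (-0.36 ± 0.09 SE, adjusted p = 0.0137), called under 10 of 15 alternatives and not without tRNA-Glu replicate 2 (-0.34, adjusted p = 0.0668) or control replicate 1 (-0.27, adjusted p = 0.0713). In the tRNA-Arg line the difference was -0.20 (95% interval -0.42 to 0.02, adjusted p = 0.126). The probe of SLC43A1 met the detection p of the rule on 4 arrays, and those of SLC7A11 and SLC1A4 on 2 arrays each, the fewest the rule allows.

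**Figure D2:**
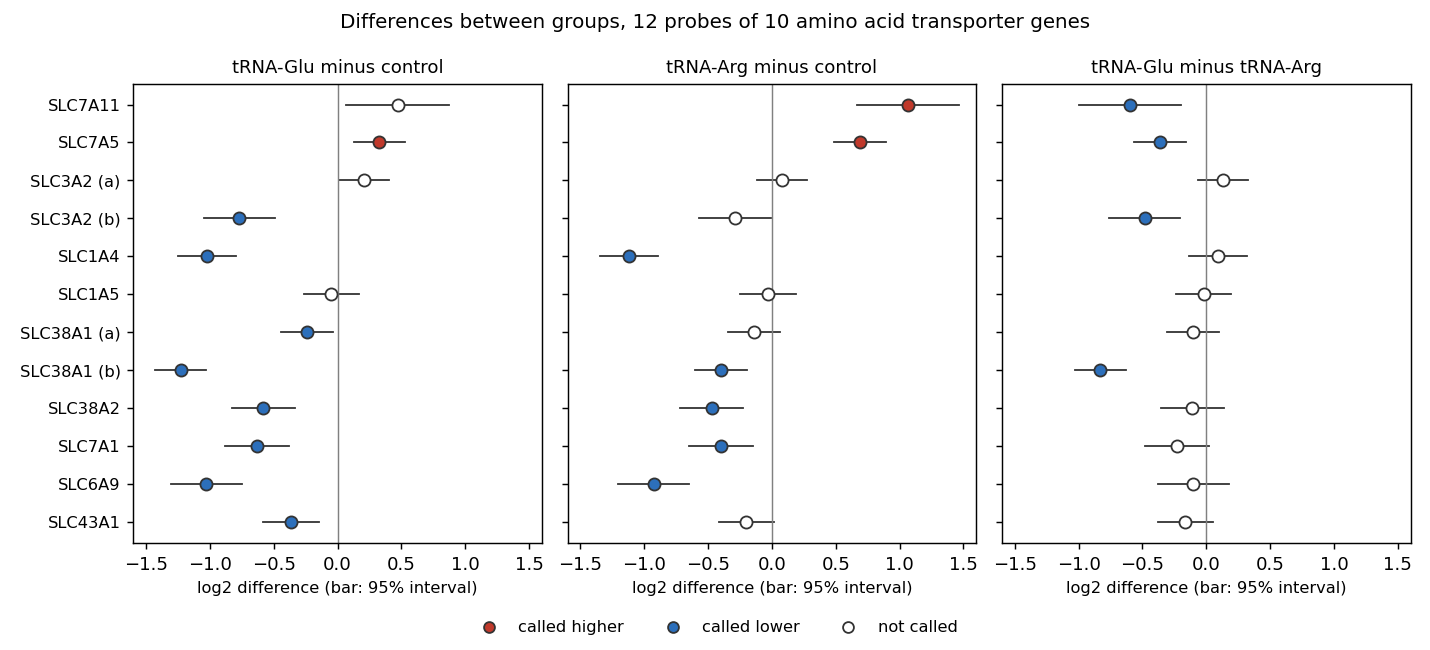
Log2 difference (horizontal axis) of each probe in the 3 comparisons, with points for the estimates of the fit over 2 arrays per group and bars for 95% intervals. Red points were called higher, blue points lower and open points not called. In the tRNA-Glu comparison 8 probes were called lower, and between the lines 4 were, all lower in the tRNA-Glu line.

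The direct comparison of the lines asks which transporters differ between cells over-expressing one tRNA and the other. Of the 12 probes, 4 were called lower in the tRNA-Glu than in the tRNA-Arg line and 0 higher, against 17.8% and 18.0% of all kept probes, or 35.8% in either direction. Without SLC7A11 and SLC1A4, which met the detection rule in 1 group only, 3 of 10 probes were called lower and 0 higher. For 8 of the 12 probes the arrays of the lines did not overlap, against 70.6% of all kept probes. SLC38A1 probe (b) was 1.78-fold lower in the tRNA-Glu line (-0.83 ± 0.09 SE, adjusted p = 0.00183, -0.43 without background correction), a call that held under all 14 alternatives that tested this probe. SLC7A11 was 1.51-fold lower (-0.60 ± 0.17 SE, adjusted p = 0.0328, called under 8 of 15 alternatives), and the difference was -0.32 without tRNA-Arg replicate 1. SLC7A5 was 1.28-fold lower (-0.36 ± 0.09 SE, adjusted p = 0.0184) and SLC3A2 probe (b) 1.40-fold lower (-0.48 ± 0.12 SE, adjusted p = 0.0202). The call of SLC7A5 was lost without either array of either line (adjusted p = 0.0547 to 0.0905). That of SLC3A2 probe (b) was lost without tRNA-Arg replicate 1 or 2 or tRNA-Glu replicate 2 (adjusted p = 0.0683 to 0.0912). The number of calls fell from 4 to between 1 and 3 when single arrays were left out, with 1 call without tRNA-Arg replicate 1 or tRNA-Glu replicate 2 and 2 calls without tRNA-Arg replicate 2 or tRNA-Glu replicate 1.

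For SLC1A4, SLC6A9 and SLC38A2, called lower in both lines, the lines were not called apart. The differences were 0.09 (95% interval -0.13 to 0.32) for SLC1A4, -0.10 (95% interval -0.38 to 0.18) for SLC6A9 and -0.11 (95% interval -0.35 to 0.14) for SLC38A2. SLC7A1 differed by -0.23 (95% interval -0.48 to 0.02, adjusted p = 0.129). A missed threshold does not show that the lines act alike.

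Among other genes of amino acid handling, transporters outside the 10 were called in both directions. Of 44 other transporters of the plasma membrane and lysosome, 18 had a kept probe, and each gene was read by its probe of highest mean. In the tRNA-Glu line 9 of these 18 were called higher and 4 lower, with a median log2 difference of 0.30, against 30.3% higher and 26.5% lower among 10877 genes so read, or 56.7% in either direction. In the tRNA-Arg line 5 were higher and 5 lower, with a median of 0.16, against 20.4% higher and 22.2% lower, or 42.6% in either direction. Between the lines 5 were called higher and 1 lower in the tRNA-Glu line, against 21.7% and 16.5% of all genes, or 38.2% in either direction. The 10 described genes, read the same way, had 1 higher and 6 lower with a median of -0.30 in the tRNA-Glu line, and 2 higher and 4 lower with a median of -0.17 in the tRNA-Arg line. The medians of all genes were 0.04 and -0.02. Some of the other transporters called higher in both lines, SLC43A2 among them, were not above background on either control array. They met the detection rule through the lines alone, so the rule itself set their direction. The counts and medians above include them, as those of the 10 described genes include SLC7A11 and SLC1A4. The difference between these lists was not tested.

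SLC7A2, a carrier of arginine and lysine like SLC7A1, rose 1.53-fold in the tRNA-Glu line (0.61 ± 0.08 SE, adjusted p = 0.000967) and 1.97-fold in the tRNA-Arg line (0.98 ± 0.08 SE, adjusted p = 0.000283). SLC43A2, a relative of SLC43A1 that carries branched-chain amino acids, was not above background in control. By the group means it was at least 1.89-fold higher in the tRNA-Glu line (adjusted p = 5.77e-05) and at least 1.42-fold higher in the tRNA-Arg line (adjusted p = 0.00037). SLC1A3, a glutamate and aspartate carrier, fell 1.88-fold in the tRNA-Glu line (-0.91 ± 0.10 SE, adjusted p = 0.000429) and 1.77-fold in the tRNA-Arg line (-0.82 ± 0.10 SE, adjusted p = 0.00123). The arginine and lysine carriers SLC7A1 and SLC7A2 had opposite signs in both lines.

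Of 12 measured mitochondrial amino acid carriers, 4 were called higher and 0 lower in the tRNA-Glu line, and 1 higher and 1 lower in the tRNA-Arg line, with medians of 0.05 and -0.12. The 33.3% and 16.7% called in either direction compare with 56.7% and 42.6% of all genes. SLC25A22, a mitochondrial glutamate carrier, fell 1.66-fold in the tRNA-Arg line (-0.73 ± 0.09 SE, adjusted p = 0.0012), while its difference in the tRNA-Glu line was 0.06 ± 0.09 SE (adjusted p = 0.574). The lines differed by 0.79 for SLC25A22 (adjusted p = 0.00214).

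Of 31 measured genes of the amino acid response outside transport, 20 were called lower, 4 higher and 7 not called in the tRNA-Glu line. In the tRNA-Arg line 19 were called lower, 3 higher and 9 not called. The medians were -0.65 and -0.52. Of all genes 26.5% were called lower and 30.3% higher in the tRNA-Glu line, and 22.2% and 20.4% in the tRNA-Arg line. ASNS, asparagine synthetase and a standard ATF4 target, fell by 1.90 on the log2 scale in the tRNA-Glu line (SE 0.08, adjusted p = 2.34e-05) and by 1.50 in the tRNA-Arg line (SE 0.08, adjusted p = 5.17e-05). SLC7A5 and SLC7A11, also counted among ATF4 targets, had the opposite sign to ASNS in both lines. SLC7A11 was not called in the tRNA-Glu line (adjusted p = 0.0514) and was not above background in control. The members SLC6A9, SLC38A2, SLC7A1 and SLC38A1 probe (b) were called lower in both lines, as ASNS was. SLC38A1 probe (a) was called lower in the tRNA-Glu line only (adjusted p = 0.0484, and 0.239 in the tRNA-Arg line). SLC1A4 was also called lower in both lines, but it met the detection rule in control alone and so had to be lower in the lines. The part of ATF4 in these differences was not tested.

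**Figure D3:**
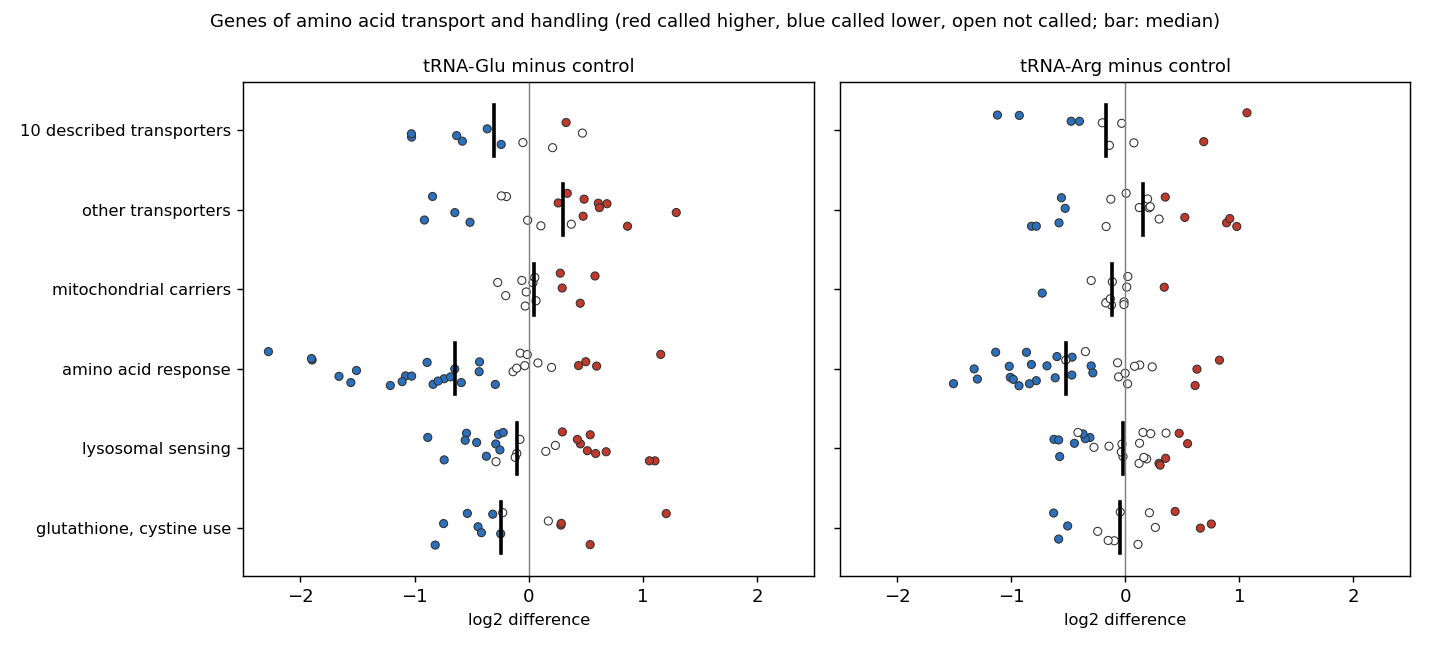
Log2 difference from control (horizontal axis) of each measured gene, read by its probe of highest mean, in 6 lists of amino acid transport and handling, in the tRNA-Glu line (left) and the tRNA-Arg line (right). Points are genes, coloured by call, and black bars are list medians. The medians of the amino acid response list are -0.65 and -0.52, and those of the other transporters 0.30 and 0.16. The latter include genes that met the detection rule through the lines alone.

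Genes of amino acid sensing at the lysosome were called in both directions, 9 higher and 10 lower of 25 in the tRNA-Glu line and 5 higher and 7 lower in the tRNA-Arg line, with medians of -0.10 and -0.02. Of 13 measured genes listed under glutathione synthesis and cystine use, 4 were higher and 7 lower in the tRNA-Glu line. In the tRNA-Arg line 3 were higher and 3 lower, and the medians were -0.25 and -0.04. The list also holds HMOX1, TXNRD1 and NFE2L2, which are not enzymes of glutathione synthesis. In either direction the lysosomal genes were called at 76.0% and 48.0% and the glutathione genes at 84.6% and 46.2%, against 56.7% and 42.6% of all genes, so the tRNA-Arg shares lie near that of all genes. HMOX1, haem oxygenase, rose 2.31-fold in the tRNA-Glu line (1.20 ± 0.11 SE, adjusted p = 0.000228) and 1.58-fold in the tRNA-Arg line (0.66 ± 0.11 SE, adjusted p = 0.00441). CHAC2, which cleaves glutathione, fell 1.68-fold in the tRNA-Glu line (-0.75 ± 0.09 SE, adjusted p = 0.000568), and its difference in the tRNA-Arg line was 0.21 ± 0.09 SE (adjusted p = 0.101).

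The genes nearest in pattern to 3 members were found by the Euclidean distance between log2 values centred on each probe's mean over the 6 arrays, among 10876 other genes. For SLC7A11 they were FZD7, EDNRB and ZNF365, at distances of 0.321 to 0.341. For SLC7A5 they were ERCC6L, ITGA2 and SHISA2, at 0.125 to 0.137. For SLC3A2 probe (a) they were PLCL2, SEPTIN9 and RNF123, at 0.0487 to 0.0565. With 3 groups of 2 arrays, many genes share such a pattern.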

How the data were processed

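Total RNA was measured on 6 Illumina BeadChip arrays, 2 per group. The authors deposited intensity values before normalization and a detection p-value for each probe, per the file headers. The authors also deposited processed intensity values whose quantiles are alike on all arrays, for which the submitters' processing notes name lumi, and a table of log fold changes per gene, read here as log2 though the authors state neither base nor direction. Its sign is opposite to line minus control in the array values.

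Intensities were corrected for background with neqc of limma 3.58.1 (R 4.3.3; offset 16, background from the detection p-values), quantile normalized and taken to log2. The 18106 probes whose detection p was under 0.01 on 2 or more arrays were kept. A probe counted as above background on an array at a detection p under 0.05. Probes were named through the platform annotation (30113 with 1 gene, 8 with several, 17202 with none) and Entrez identifiers of RefSeq. Differences were fitted over all kept probes and the 3 groups with lmFit and eBayes (3 residual and 4.08 prior degrees of freedom), adjusted by Benjamini-Hochberg over all kept probes, and called at an adjusted p under 0.05. The offset understates changes of dim probes, and levels of different probes are not comparable. The fit was also run on simulated data, and no statement here rests on the outcome.

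The members, the lists and the promoter motifs were chosen with earlier results of these data known. All member probes are named. Of each other list up to 4 genes of smallest p may be named, and the 3 nearest genes of SLC7A11, SLC7A5 and SLC3A2 are named. Alternatives covered normalization, background, the filter, probe summaries, the variance model, single arrays and the replicate number as a block.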

Additional observations from a re-analysis of the deposited data

How the results depend on the processing

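Under 16 alternatives, 777 values of the single probes named were recomputed, of which 704 kept their direction and their side of the threshold, 37 were no longer called, 21 became called and 15 changed sign. The number of arrays and the low signal of SLC7A11, SLC1A4, SLC43A1 and SLC38A1 probe (b) limit precision, and differences of these dim probes shrank without background correction. The cause of the other changes was not tested.

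For SLC1A5 (ILMN_1707720) the sign changed with median scaling, to 0.080 in the tRNA-Glu line, 0.067 in the tRNA-Arg line and 0.013 between the lines. With single arrays left out it ranged from -0.12 to 0.019 in the tRNA-Glu line, -0.10 to 0.039 in the tRNA-Arg line and -0.071 to 0.030 between the lines. Median scaling turned SLC38A1 probe (a) (ILMN_1769911) to 0.030 in the tRNA-Arg line. With single arrays left out, the difference between the lines was -0.22 to 0.0035 for SLC38A2 (ILMN_1651799) and -0.27 to 0.066 for SLC6A9 (ILMN_1714445), and that of SLC25A22 (ILMN_1687958) in the tRNA-Glu line was -0.019 to 0.15. For SLC3A2 the mean of its probes gave -0.28 in the tRNA-Glu line, -0.11 in the tRNA-Arg line and -0.17 between the lines, since its probes have opposite signs.

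Counts of members called stayed within 1.5 times in the comparisons with control, 6 to 9 in the tRNA-Glu line and 5 to 8 in the tRNA-Arg line when single arrays were left out. Between the lines they were 1 to 3 without single arrays and 2 with 1 probe per gene, which tests fewer probes. Among all kept probes, single arrays left out gave 7612 to 9447 calls in the tRNA-Glu line, 4746 to 6936 in the tRNA-Arg line and 3174 to 6188 between the lines, and 1 probe per gene gave 6474 of 10877 in the tRNA-Glu line. With cyclic loess and median scaling the share of calls that were higher was 45.4% to 56.1%. The filter to probes detected on all arrays left out SLC7A11, SLC1A4 and SLC43A1.

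Same-numbered arrays share only a number (correlations of their deviations -0.02 to 0.03), and a fit with the replicate block called 9 members in the tRNA-Glu line, 7 in the tRNA-Arg line and 4 between the lines. In the tRNA-Glu line these were 2 higher and 7 lower, since SLC7A11 became called (adjusted p = 0.0315) and SLC38A1 probe (a) (ILMN_1769911) was no longer called (adjusted p = 0.0586). The slide as a block was not run, since no slide is named in the headers.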
